A study of Mus musculus with 20 samples.

Results

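Immunoglobulin variable segments are the gene pieces from which the antigen-binding ends of antibody heavy and light chains are built. The members described here are the 181 segments of the heavy (Ighv), kappa (Igkv) and lambda (Iglv) loci that were selected on their level, a mean of at least 1 TPM (transcripts in every 1000000, a level corrected for gene length) over all 20 libraries. They were drawn from 348 such segments among 46078 gene IDs: 94 of 185 heavy, 84 of 160 kappa and 3 of 3 lambda segments. Because the mean TPM chose them, their levels are a description, and a segment that passed only through the libraries where it is high had to be uneven. Just inside the limit were Ighv6-4 (mean 1.12 TPM), Ighv5-15 (1.14) and Igkv6-29 (1.18). Just outside were Igkv14-130 (0.937), Ighv1-38 (0.895) and Ighv15-2 (0.878).

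In a developing B cell the RAG recombinase joins a variable segment to diversity and joining segments on a heavy chain allele, and to a joining segment on a light chain allele. The joined exon is then spliced to a constant region gene, and plasma cells hold such RNA at very high levels. Unjoined heavy chain segments can also be transcribed, as germline RNA, in early lymphoid cells whose locus is open. A count of reads over a segment does not separate joined from unjoined RNA.

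RNA came from bone marrow cells of C57Bl/6J mice of 3 to 4 months, sorted for Sca1 and cKit and against lineage markers (LSK), the fraction that holds stem cells and multipotent progenitors. The 5 groups were +/+;Vav-Cre (WT), Idh1LSL-R132H/+;Vav-Cre (Idh1R132H), Idh2LSL-R140Q/+;Vav-Cre (Idh2R140Q), Idh2LSL-R172K/+;Vav-Cre (Idh2R172K) and Tet2-/- (Tet2KO), with 4 libraries each and 2 mice pooled per library. Vav-Cre acts throughout the blood lineages, B cells included, and is carried by every group but Tet2KO, whose label names no Cre. The Idh alleles change isocitrate dehydrogenases so that they make 2-hydroxyglutarate, which inhibits TET dioxygenases, and Tet2 encodes one of these. In pooled bulk RNA, fewer cells of a type and less RNA per cell cannot be told apart.

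Libraries held 35.1 to 44.9 M assigned reads (M, 1000000 reads), recovered from the TPM values. For a member of the median length, 359 bases, 1 TPM was worth 3.91 to 5.53 reads, so a value below 1 TPM rested on a handful of reads. Heavy segments drew 5093 to 20711 reads in a library and kappa segments 7328 to 51250. The sort markers were high, with Kit at 335 to 636 TPM in WT and the Idh groups. They were not alike in all groups, and their differences are given with the marker lists below. Tet2KO replicate 2 stood apart, with Kit at 97.9 TPM against 334, 432 and 456 in the other Tet2KO libraries. Ms4a1, a defining B cell marker that encodes CD20, was near 0, at 0 to 0.292 TPM. Other B lineage markers were detected: 5 of 13 listed had a mean of at least 1 TPM, and the list summed to 532 to 630 TPM in WT. The mean of log2(TPM + 1) over the list was only 1.93 to 2.09 in WT, so few of its genes carried that sum. The plasma cell genes were not at 0: Jchain, the joining chain of secreted IgM and IgA, was at 101 to 484 TPM and Sdc1, which encodes CD138, at 17.9 to 39.4. The part of other cell types in the levels below was not tested.

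The ends of 9 segments are shown because the results turn on them: the last 60 bases of each GENCODE M21 transcript, up to where joining adds the next segment. Capitals mark the codons for tyrosine, then tyrosine or phenylalanine, then cysteine (TAT or TAC, then TAT, TAC, TTT or TTC, then TGT or TGC, searched on the sense strand), the conserved end of framework 3. These letters stood in the last 60 bases of 176 of 181 members and of 278 of 348 segments (79.9%). Ighv1-81, Igkv1-110 and Igkv14-126 were the most abundant members, Ighv11-2 and Ighv5-16 the next heavy segments, Ighv6-6 and Igkv3-5 were higher in Idh2R172K, and Ighv1-25 and Ighv1-27 are annotated as pseudogenes.
Ighv1-81: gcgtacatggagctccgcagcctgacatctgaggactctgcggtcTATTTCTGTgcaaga
Ighv5-16: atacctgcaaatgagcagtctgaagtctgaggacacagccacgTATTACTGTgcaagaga
Ighv11-2: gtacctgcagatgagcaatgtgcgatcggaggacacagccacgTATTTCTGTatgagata
Ighv6-6: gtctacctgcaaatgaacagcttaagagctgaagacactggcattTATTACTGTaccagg
Ighv1-25: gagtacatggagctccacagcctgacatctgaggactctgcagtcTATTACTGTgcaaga
Ighv1-27: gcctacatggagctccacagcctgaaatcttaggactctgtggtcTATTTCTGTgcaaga
Igkv1-110: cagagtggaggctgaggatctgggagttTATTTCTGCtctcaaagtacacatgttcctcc
Igkv14-126: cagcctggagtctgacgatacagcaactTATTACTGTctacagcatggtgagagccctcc
Igkv3-5: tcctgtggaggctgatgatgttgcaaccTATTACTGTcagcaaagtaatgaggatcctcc
In the heavy segments 6 or 8 bases followed the cysteine codon, and in the kappa segments 23, since light chain variable segments encode more of the third antigen-binding loop themselves.

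Segments resemble each other closely, which bears on where reads are counted. The nearest other segment matched at a median identity of 95.4% over the whole transcript for heavy members and 94.7% for kappa members. At 98% or more there were 8 heavy and 6 kappa members, among them Ighv11-2 (98.9% to Ighv11-1), Igkv6-20 (98.7% to Igkv6-29), Igkv3-5 (98.3% to Igkv3-10) and Ighv1-23 (98% to Ighv1-15). How reads that fit several segments were counted is not given in the sources used here, so levels of such segments are uncertain.

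Heavy chain variable RNA did not separate the groups. The summed TPM of the 94 heavy members was 2760, 1611, 2371 and 2871 in WT and 2540, 1763, 1550 and 2550 in Idh1R132H (replicates 1 to 4 in this order here and below). It was 2196, 3529, 1313 and 3748 in Idh2R140Q, 1869, 2988, 1719 and 4658 in Idh2R172K, and 3440, 901, 3109 and 2162 in Tet2KO. All groups overlapped, and the lowest library was Tet2KO replicate 2, the one with low Kit.

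Kappa sums were highest in Idh2R140Q replicate 2 and, as a group, in Idh2R172K. They were 4771, 3356, 3425 and 3688 TPM in WT, 3702, 3247, 2347 and 2617 in Idh1R132H and 4006, 9795, 2185 and 3727 in Idh2R140Q. In Idh2R172K they were 4233, 7578, 5365 and 6986, and in Tet2KO 4144, 1299, 4047 and 2382. The 4 Idh2R172K libraries lay above all Idh1R132H and all Tet2KO libraries, and overlapped WT through WT replicate 1 and Idh2R172K replicate 1. The kappa constant gene Igkc, which is spliced to every joined kappa segment, was at 4805, 9133, 5467 and 7608 TPM in Idh2R172K and 5566, 3805, 4223 and 4152 in WT. Its difference of 0.57 (log2; limma adjusted p = 0.366) did not pass the test.

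Lambda sums were the smallest of the 3 loci, and in WT and Tet2KO 1 library stood far above the rest. They were 1895, 337, 332 and 181 TPM in WT, and 190, 192, 194 and 197 in Idh2R172K, a narrow range inside that of WT. They were 186, 449, 467 and 157 in Idh1R132H, and 359, 298, 221 and 319 in Idh2R140Q. In Tet2KO they were 139, 117, 129 and 530. Lambda made up 2.47 to 28.4% of light chain variable TPM, the top value in WT replicate 1.

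**Figure D1:**
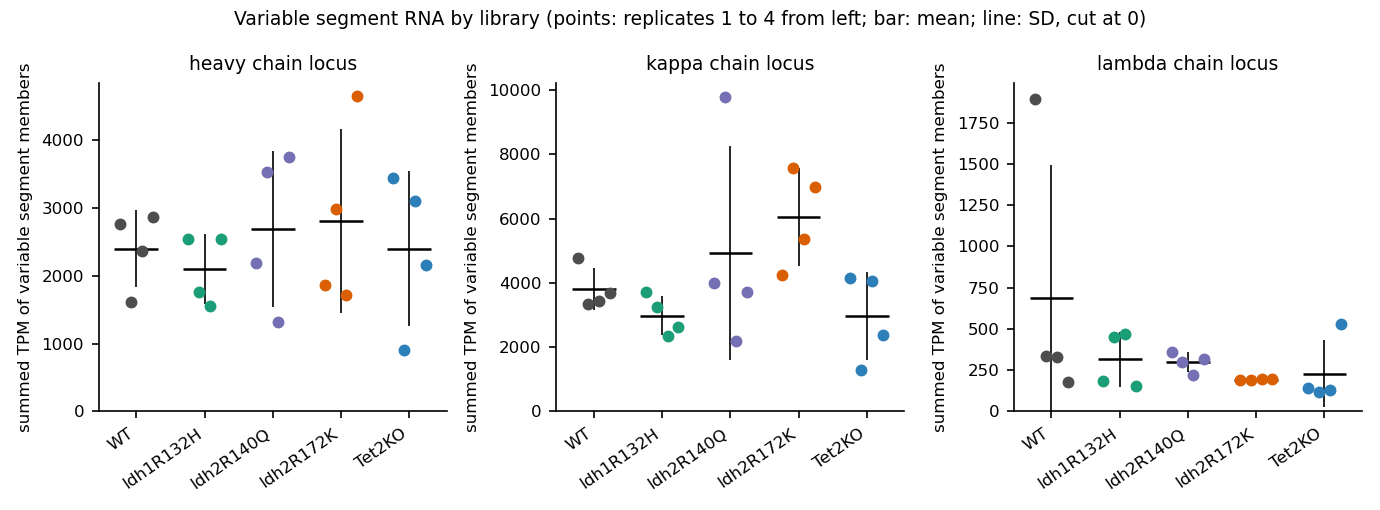
Summed TPM (vertical axis, linear from 0) of the heavy, kappa and lambda members in each of the 20 libraries, by group; points are replicates 1 to 4 from left, the bar is the mean and the line the SD, cut at 0. Heavy sums overlap in all groups, kappa sums of Idh2R172K lie at 4233 to 7578, and WT replicate 1 holds the highest lambda sum, 1895.

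A few segments held much of each locus. The 6 most abundant heavy members carried 52.3% of heavy TPM and the 6 most abundant kappa members 39.8% of kappa TPM. Ighv1-81, a segment of the large Ighv1 (J558) family (chromosome 12, 115920279 to 115920712, mm10), was the most abundant of all with a mean of 910 TPM. It was at 717, 615, 1397 and 1186 TPM in WT, 1454, 369, 511 and 1212 in Idh1R132H, 931, 508, 610 and 1749 in Idh2R140Q, 910, 483, 260 and 923 in Idh2R172K and 1650, 254, 1247 and 1209 in Tet2KO. It led the heavy locus in 18 of 20 libraries, with 15.1 to 58.9% of heavy TPM where it led, and its groups overlapped. In Idh2R172K against WT its difference was -0.70 (log2; adjusted p = 0.473).

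The other abundant heavy segments were present in some libraries and nearly absent from others. Ighv5-16 (chromosome 12, 113838526 to 113839010) reached 1172 TPM in Idh2R172K replicate 4, where it made up 25.2% of heavy TPM, and was at 0.192 TPM in Idh2R172K replicate 1. Ighv11-2 (chromosome 12, 114048241 to 114048812) reached 557 TPM in Idh2R140Q replicate 2 and was at 0.281 in Tet2KO replicate 2. The remaining heavy members among the 6 most abundant were Ighv7-1 (mean 69.3 TPM), Ighv3-6 (55.8) and Ighv1-76 (50.01). Members of the Ighv1 family together held 68.2% of heavy TPM, with 54 of its 93 segments among the members, and the Ighv5 family 9.64%.

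Among kappa segments Igkv1-110 (mean 432 TPM; chromosome 6, 68270485 to 68271267) was highest in Tet2KO replicate 1, at 1526 TPM, and lowest in Idh2R172K replicate 2, at 83.1. Igkv14-126 (mean 398 TPM; chromosome 6, 67896172 to 67896642) was at 284, 2821, 167 and 320 TPM in Idh2R140Q and 167, 695, 177 and 1319 in Idh2R172K. Its values were 456, 157, 54.7 and 590 TPM in WT, 199, 400, 2.28 and 66.6 in Idh1R132H, and 52.8, 1.81, 2.21 and 22.3 in Tet2KO. Tet2KO thus lay below all WT, Idh2R140Q and Idh2R172K libraries, though Tet2KO replicate 1 (52.8) was close to WT replicate 3 (54.7). Igkv14-126 was not called in Tet2KO against WT. Igkv1-117 (mean 345 TPM), Igkv15-103 (177), Igkv6-15 (151) and Igkv10-96 (147) followed. Iglv1, the main lambda segment (chromosome 16, 19085017 to 19085500), was at 1872 TPM in WT replicate 1 and 67.9 to 505 elsewhere, and Iglv2 and Iglv3 had means of 33.5 and 23.2 TPM.

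**Figure D2:**
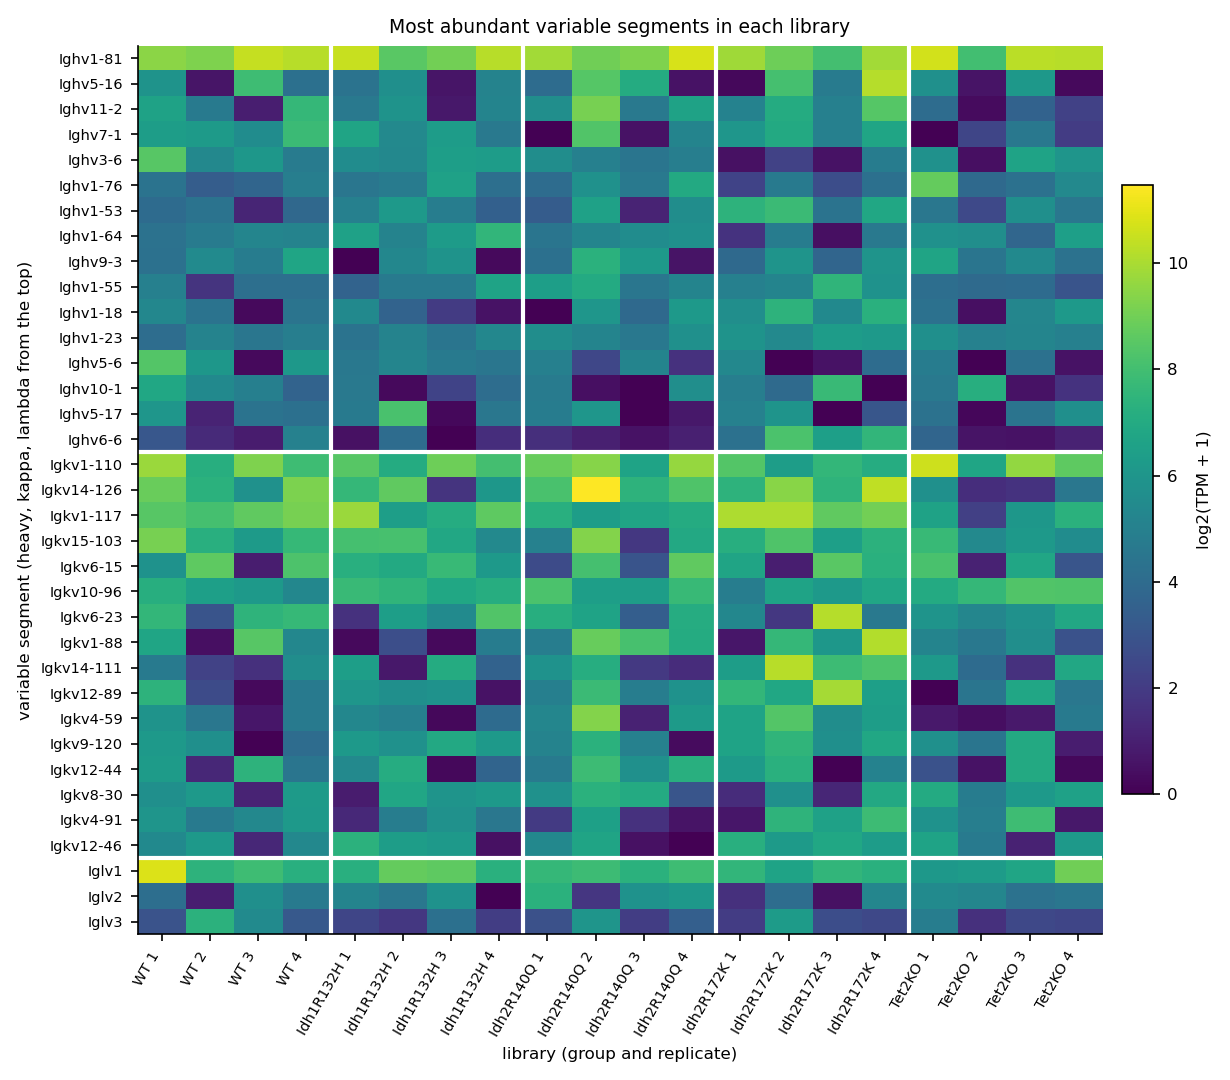
Level as log2(TPM + 1) (colour) of the 16 most abundant heavy, the 16 most abundant kappa and the 3 lambda members (rows) in the 20 libraries (columns, by group). Ighv1-81 is high in every column, while many other rows switch between high and near 0 from library to library within a group.

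Members varied between libraries far more than other genes. The median coefficient of variation over the 20 libraries was 171% for members and 22.8% for the 13637 other genes in their range of mean TPM. For 32 members 1 library held 50% or more of the summed TPM, against 4 of the other genes, and 85 members were below 1 TPM in 10 or more libraries. These shares are partly set by choosing members on their mean. The most uneven was Igkv6-29, with 23.4 TPM in WT replicate 2 and 99.1% of its TPM there. Igkv12-38 had 51.3 TPM in Idh2R172K replicate 2, and Igkv10-95 64.1 in Idh2R140Q replicate 2. Igkv4-71 had 29.4 TPM in WT replicate 3, Igkv9-129 23.1 in WT replicate 1 and Igkv4-69 36.3 in Idh1R132H replicate 2. Each of these 6 was at 0 in 12 to 18 libraries.

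Which library was highest for a member also differed. Idh2R140Q replicate 2 and Idh2R172K replicate 2 were each highest for 22 members, Idh2R172K replicate 4 for 15, and Tet2KO replicate 2 for 3. By group, 54 members peaked in Idh2R172K, 49 in Idh2R140Q, 32 in Tet2KO, 28 in WT and 18 in Idh1R132H. Single libraries weighed on these counts, as Idh2R140Q replicate 2 alone gave 22 of the 49. It and Idh2R172K replicates 4 and 2 also had the highest summed variable TPM (13622, 11840 and 10757). A difference between groups in these counts was not tested.

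A smaller set was found in every library: 24 members were at 1 TPM or more in all 20, 16 heavy, 6 kappa and 2 lambda. Some of these still varied widely, such as Igkv1-110 (coefficient of variation 83.3%). Over all members the lowest coefficients of variation, 32.1 to 42.4%, belonged to the pseudogene Ighv1-73 (1.05 to 4.22 TPM), Ighv1-77 (12.2 to 61.5), and the pseudogenes Ighv1-79 (3.85 to 13.4) and Ighv1-83 (2.39 to 12.2). Of these, Ighv1-73 was named after its values were seen.

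**Figure D3:**
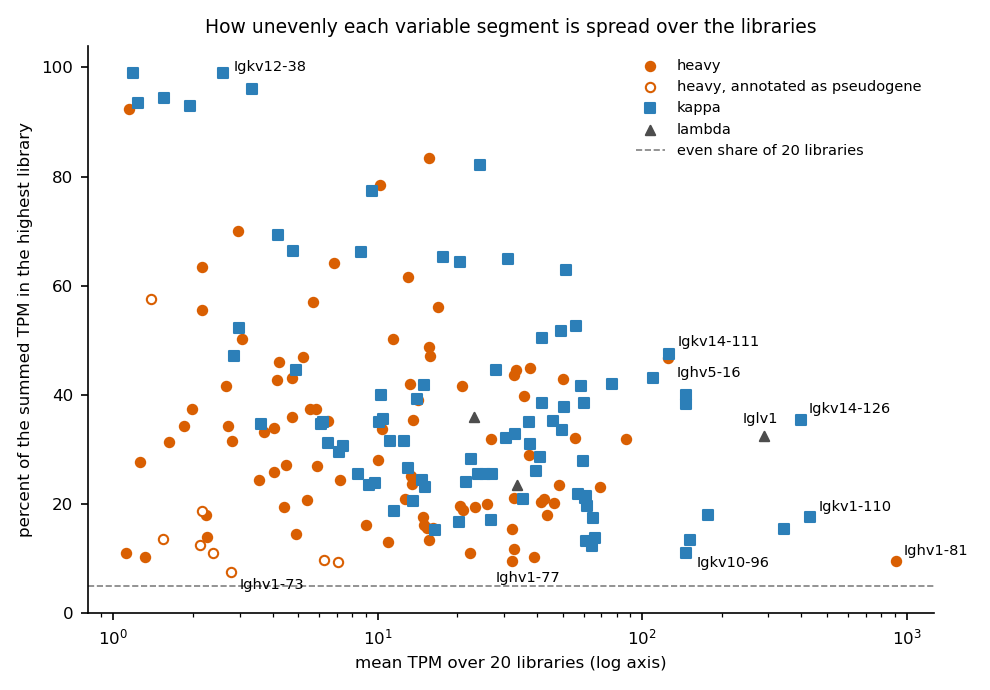
Percent of a member's summed TPM held by its highest library (vertical axis) against its mean TPM (horizontal log axis) for the 181 members; the dashed line is an even share of 20 libraries. Open circles, the heavy pseudogenes, lie low with 1 exception, and several kappa segments lie above 90%.

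Some heavy and light segments were high in the same libraries; these pairs were chosen after their values were seen and are described without a test. Ighv11-2 and Igkv14-126, a pair known from B-1a cells that bind phosphatidylcholine, shared 4 of their 5 highest libraries and 8 of their 10 highest. Both were highest in Idh2R140Q replicate 2 (557 and 2821 TPM) and next in Idh2R172K replicate 4 (351 and 1319 TPM). Ighv5-16 and Igkv1-88 shared all 5 of their 5 highest libraries and 7 of their 10 highest, and Igkv1-88 stood at 1119 TPM in Idh2R172K replicate 4. Ighv12-3 and Igkv4-91, another pair of that B-1a specificity, shared 3 of 5 and 5 of 10, with 153 and 235 TPM in Idh2R172K replicate 4. Igkv4-91 was highest in Tet2KO replicate 3 (242 TPM), where Ighv12-3 was at 0. Ighv1-81 and Igha, the IgA constant gene, shared 4 of their 5 highest libraries and 9 of their 10 highest, and Ighv1-81 and Igkv1-110 3 of 5 and 7 of 10. Shared level is not evidence that 2 segments stood in 1 cell.

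Idh2R172K against WT asks what the R172K enzyme does to the RNA of LSK cells, and here it gave the most member calls against WT. Of the 181 members 15 were called (limma on log2(TPM + 1), adjusted p under 0.05 over 14176 genes), 8.29% against 15.4% of all genes tested, so the share was below the background. Of 94 heavy members 9 were higher and 2 lower, and of 87 light chain members 3 were higher and 1 lower. The median log2 difference over members was 0.11, as over all genes (0.11). The heavy count was 6 without WT replicate 4. Only 2 light chain calls were made when replicate 2 or 3 of WT was left out, and likewise for replicate 2 or 4 of Idh2R172K.

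Igkv3-5, a kappa segment (chromosome 6, 70663275 to 70663895), was at 46.7, 325, 156 and 164 TPM in Idh2R172K and 0.427, 0.365, 0.587 and 19.6 in WT. It rose by 5.65 ± 1.36 (log2 ± SE, here and below; adjusted p = 0.00746), and the 4 libraries of each group did not overlap. Of the other groups, Idh1R132H replicate 3 reached 36.3 TPM, Tet2KO replicate 4 18.6, and Idh2R140Q replicates 1 and 2 30.2 and 116. Igkv6-32 went the other way: it was at 118, 148, 69.7 and 85.9 TPM in WT and 0.796, 1.35, 0 and 0.458 in Idh2R172K, a difference of -6.02 ± 1.34 (adjusted p = 0.00424). Its values were 0, 40.0, 38.5 and 32.8 TPM in Idh1R132H, and 0, 53.5, 58.4 and 16.8 in Idh2R140Q, so WT lay above both.

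Ighv6-6, a heavy segment (chromosome 12, 114434788 to 114435244), was at 18.6, 297, 88.4 and 183 TPM in Idh2R172K against 7.76, 1.56, 0.838 and 32 in WT, and rose by 4.03 ± 1.01 (adjusted p = 0.0102). Idh2R172K replicate 1 lay below WT replicate 4, so the groups overlapped. Ighv1-23 (chromosome 12, 114764450 to 114764883), present in every library, was at 58.7, 40.7, 79.7 and 72.6 TPM against 16, 33.8, 21.9 and 29.2 and rose by 1.29 ± 0.30 (adjusted p = 0.00546). Its groups did not overlap, though its close copy Ighv1-15 makes the assignment uncertain. Igkv3-5, Igkv6-32, Ighv6-6 and Ighv1-23 were called under every alternative that could be fitted.

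Ighv1-22 was at 4.36, 67.3, 43.7 and 45.8 TPM in Idh2R172K and 0.232, 0, 0 and 0 in WT. It rose by 4.81 ± 1.29 (adjusted p = 0.0151), a call that ended without Idh2R172K replicate 2 (0.0517). Ighv3-6 was at 0.416, 3.75, 0.469 and 27.3 TPM against 358, 39.4, 65.6 and 26.4, and differed by -4.13 ± 1.14 (adjusted p = 0.0183). It missed the threshold when WT replicate 1 was left out (0.071), and when Idh2R172K replicate 1 (0.0593) or 3 (0.0546) was. Ighv14-2 was at 0.208, 3.74, 11.4 and 0.239 TPM against 50.6, 17.5, 15.6 and 50.5, and differed by -3.29 ± 0.98 (adjusted p = 0.029). Without WT replicate 1 its adjusted p was 0.08, without WT replicate 4 0.0692, without Idh2R172K replicate 1 0.0869 and without Idh2R172K replicate 4 0.0961.

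The other 4 called members lie outside the naming rule and were named after their values were seen. Ighv1-53 rose by 3.24 ± 1.06 (adjusted p = 0.046) and Ighv5-2 by 2.38 ± 0.77 (adjusted p = 0.0452). Ighv5-2 had a mean of 0.216 TPM over the 16 libraries of the other groups, so it too passed the limit only through Idh2R172K. Igkv5-39 rose by 3.75 ± 1.23 (adjusted p = 0.0462) and Igkv14-111 by 4.64 ± 1.53 (adjusted p = 0.0481). Igkv14-111 stood at 83.4, 1200, 231 and 302 TPM in Idh2R172K and 25.0, 3.79, 2.03 and 47.7 in WT. All 4 calls were lost without the filter on low levels and on leaving out several single libraries. Ighv1-53 lost it without any 1 WT library or Idh2R172K replicate 1, 2 or 4 (0.0546 to 0.156). Ighv5-2 lost it without any 1 WT library or replicate 2 or 4 of Idh2R172K (0.0644 to 0.15). Igkv5-39 lost it without WT replicate 2, 3 or 4 or any 1 Idh2R172K library (0.0598 to 0.159), and Igkv14-111 on leaving out replicate 1, 2 or 3 of WT, or 2, 3 or 4 of Idh2R172K (0.061 to 0.142). Without that filter 10 of 274 segments were called, among them Ighv8-11 and Ighv4-2, which were higher and lie below the 1 TPM limit.

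**Figure D4:**
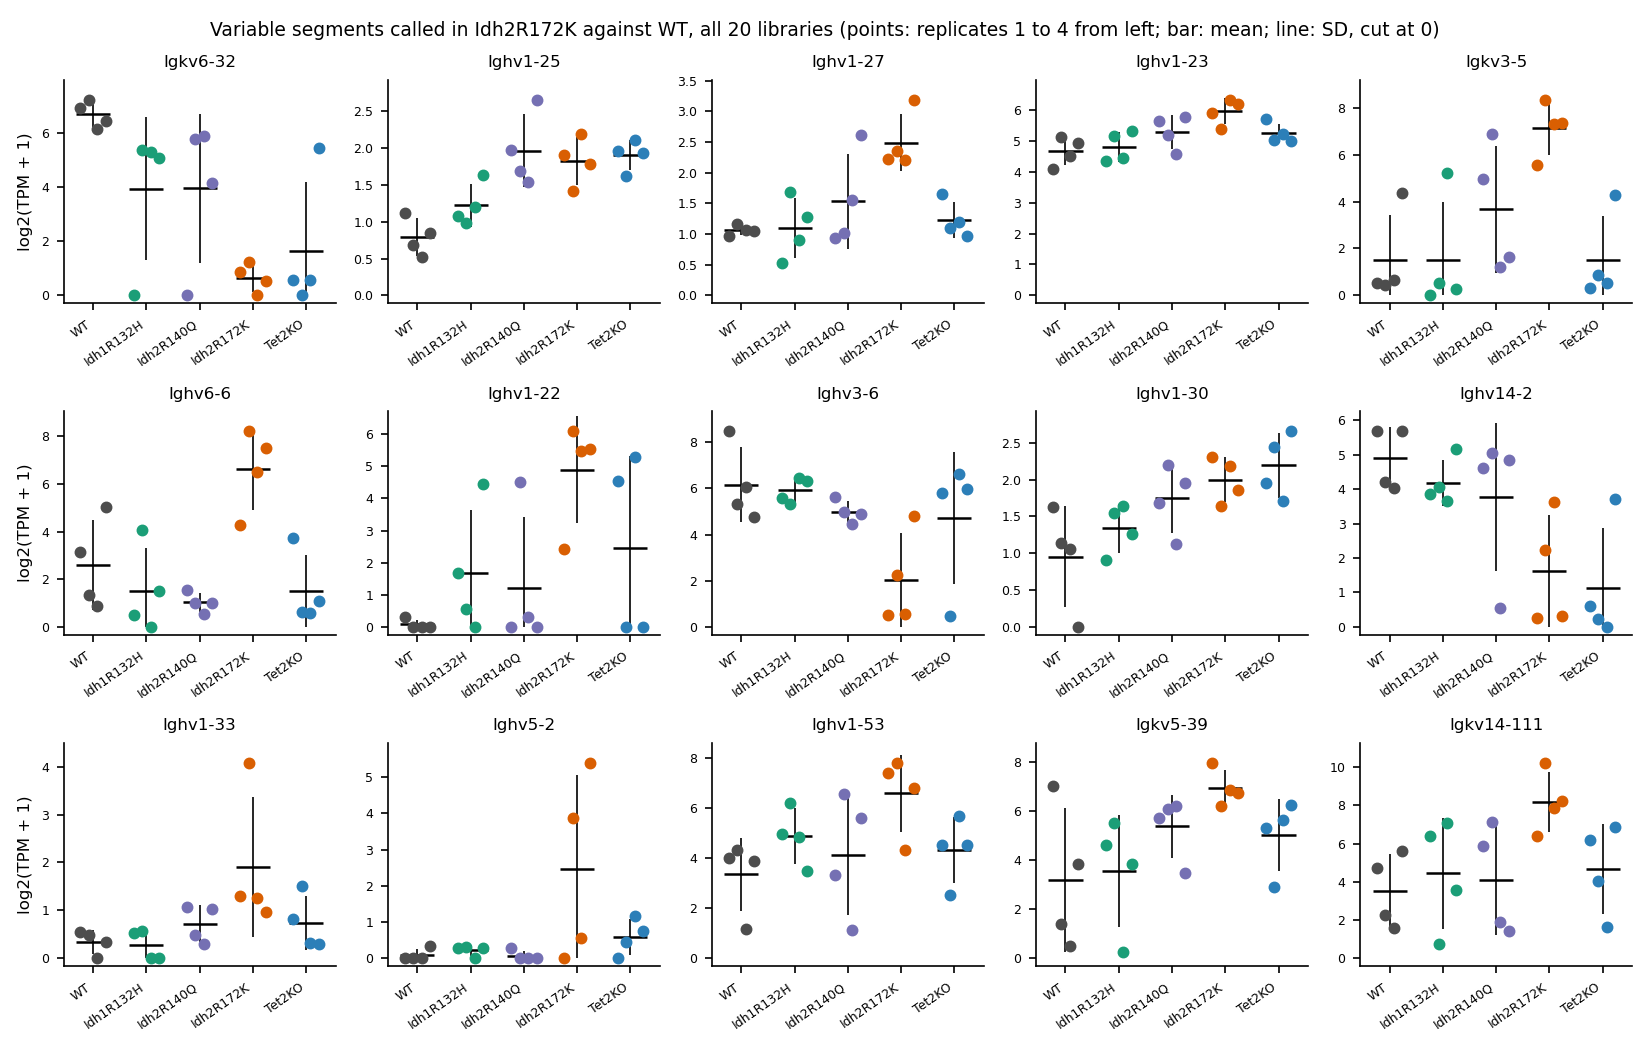
Level as log2(TPM + 1) (vertical axis) of the 15 members called in Idh2R172K against WT, in all 20 libraries by group; points are replicates 1 to 4 from left, the bar is the mean and the line the SD, cut at 0. Igkv6-32 is high in all WT libraries and at or below 1.35 TPM in all Idh2R172K libraries, while Igkv3-5 and Ighv6-6 are highest in Idh2R172K.

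All 8 pseudogene members are heavy segments (of 130 pseudogenes among the 348 segments), and they lie in a pair of stretches of chromosome 12 (mm10). One, from Ighv1-25 to Ighv1-33 (114781409 to 114844083, 62.7 kb), holds 7 members, 5 of them pseudogenes. The other, from Ighv1-72 to Ighv1-83 (115757984 to 115964250, 206 kb), holds 12 members, 3 of them pseudogenes, and 10 of the 12 were at 1 TPM or more in every library. The stretches were outlined after the values were seen, so their counts are given with no test.

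In the stretch from Ighv1-25 to Ighv1-33, 4 of 7 members were called higher in Idh2R172K than in WT and none was called lower, beside 15.4% of all genes called. The log2 difference was above 0 in 6 of 7, with a median of 1.04, and Ighv1-31, named after its values were seen, lay below 0 (-0.54, adjusted p = 0.848). Ighv1-25 was at 2.75, 1.67, 3.57 and 2.43 TPM in Idh2R172K and 1.18, 0.606, 0.434 and 0.795 in WT, and rose by 1.03 ± 0.23 (adjusted p = 0.00435). Ighv1-27 was at 3.64, 4.10, 3.62 and 8.13 TPM against 0.958, 1.23, 1.10 and 1.08, and rose by 1.43 ± 0.32 (adjusted p = 0.00479). Neither segment's groups overlapped, and both were called under every alternative that could be fitted. Both are low, near the 1 TPM limit. The rise in this stretch was not confined to Idh2R172K. Against WT, 7 of 7 members lay above 0 in Idh2R140Q (median 0.79, 0 called) and 6 of 7 in Tet2KO (median 0.40, 2 called). In Idh1R132H 4 of 7 did (median 0.04, 0 called). Idh2R172K had 3 members called higher against Idh1R132H, 0 against Idh2R140Q and 1 against Tet2KO, beside 13.5, 10.5 and 26.8% of all genes.

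Ighv1-30 and Ighv1-33 were the other members of that stretch called. Ighv1-30 rose by 1.04 ± 0.31 (adjusted p = 0.0289). Its adjusted p passed the threshold no longer when WT replicate 3 (0.0532) or 4 (0.0916) was left out, nor when Idh2R172K replicate 1 (0.0791) or 3 (0.0643) was. Ighv1-33 rose by 1.56 ± 0.49 (adjusted p = 0.0366), with 15.9 TPM in Idh2R172K replicate 2 and 0.958 to 1.46 in the other 3. Its mean over the 16 libraries of the other groups was 0.496 TPM, so it passed the limit of 1 TPM only through Idh2R172K, and its call is a description. Its call ended without Idh2R172K replicate 2 (0.0639), WT replicate 1 (0.0579), WT replicate 2 (0.0639), WT replicate 3 (0.096) or WT replicate 4 (0.0633).

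In the stretch from Ighv1-72 to Ighv1-83 none of 12 members was called in Idh2R172K against WT, and 1 of 12 lay above 0, with a median of -0.41. Ighv1-79 was at 4.37, 4.46, 5.15 and 4.79 TPM in Idh2R172K, 4.66, 6.17, 3.85 and 5.49 in WT and 8.83, 12.8, 9.80 and 13.4 in Tet2KO. Its Tet2KO libraries lay above both other groups. Whether the 2 stretches differ in response was not tested.

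**Figure D5:**
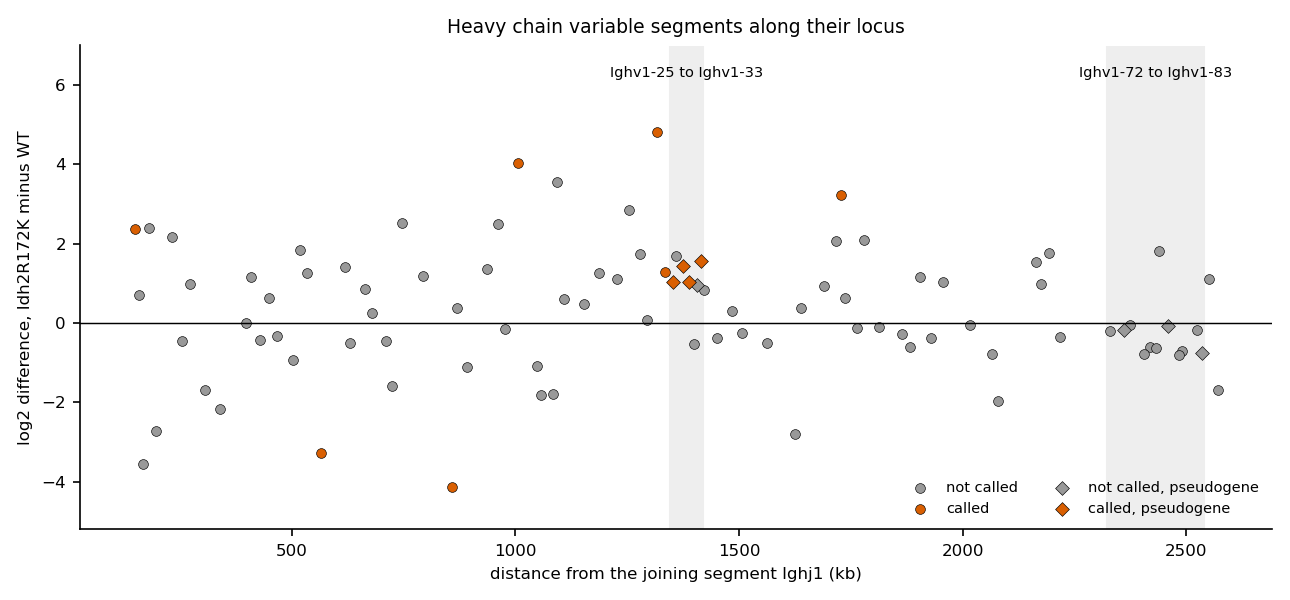
Log2 difference of Idh2R172K minus WT (vertical axis) for the 94 heavy members by distance in kb from the joining segment Ighj1 (horizontal axis); orange marks called members, diamonds pseudogenes, and grey bands the 2 stretches named. The bands were drawn after the values were seen; the one from Ighv1-25 to Ighv1-33 holds 4 called members and the one from Ighv1-72 to Ighv1-83 holds none.

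Tet2KO against WT asks what loss of Tet2 does, with the difference in Cre not separated from it. There were 6 member calls of 181, 3.31% against 7.05% of all genes tested, 3 higher and 3 lower. The heavy count of 4 was 2 without WT replicate 3, WT replicate 4 or Tet2KO replicate 2. The light chain count of 2 was 0 without WT replicate 1, 2 or 3 or Tet2KO replicate 2, and 5 without Tet2KO replicate 1. Calls over all genes moved too, from 999 of 14176 to 266 without WT replicate 3 and 1391 without Tet2KO replicate 1. The higher ones were the low-level pseudogenes. Ighv1-79 rose by 1.01 ± 0.20 (adjusted p = 0.0102), with no overlap between groups. Ighv1-25, at 2.90, 2.06, 3.31 and 2.80 TPM, rose by 1.11 ± 0.23 (adjusted p = 0.0118). With any 1 library left out both kept their call. In a fit of the 2 groups alone all 6 calls were lost. That fit called 47 of 14173 genes in all, against 999 of 14176 in the main fit. Its adjusted p was 0.0668 for Ighv1-79, 0.0501 for Ighv1-25, 0.139 for Ighv1-30, 0.0796 for Ighv14-2, 0.0754 for Igkv6-32 and 0.162 for Igkv1-117. Ighv1-30 rose by 1.24 ± 0.31 (adjusted p = 0.026), and lost the call without WT replicate 3 (0.0676), WT replicate 4 (0.0581), Tet2KO replicate 2 (0.0518) or Tet2KO replicate 4 (0.0787).

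The lower calls in Tet2KO were 2 kappa segments and 1 heavy segment. Igkv1-117, the kappa segment with the third-highest mean, was at 97.4, 3.52, 67.0 and 161 TPM in Tet2KO and 355, 270, 404 and 556 in WT, a difference of -3.03 ± 0.84 (adjusted p = 0.038). It lost the call without WT replicate 1 (0.0762), WT replicate 2 (0.0541), WT replicate 3 (0.0977), WT replicate 4 (0.0703) or Tet2KO replicate 2 (0.0614). Igkv6-32 differed by -5.03 ± 1.34 (adjusted p = 0.0327), with 0.497, 0, 0.480 and 42.0 TPM in Tet2KO. Its call ended without WT replicate 1 (0.0725), 2 (0.0631) or 3 (0.0739) or Tet2KO replicate 1 (0.053), 2 (0.0707) or 3 (0.055). Ighv14-2 differed by -3.77 ± 0.98 (adjusted p = 0.0307), and its call ended without WT replicate 1 (0.079), 3 (0.0624) or 4 (0.0599) or Tet2KO replicate 2 (0.062) or 3 (0.0551). Idh2R172K and Tet2KO were compared with the same WT libraries, which Ighv1-25, Ighv1-30, Ighv14-2 and Igkv6-32 have in common.

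Neither Idh1R132H nor Idh2R140Q gave a member call against WT. In Idh1R132H against WT 0 of 181 members passed, with 0.00705% of all genes called. An unadjusted limma p under 0.05 was found for 7 of 181 members, beside 229 of all 14176 genes. In Idh2R140Q against WT 0 passed, with 0.0% of all genes called, and 12 members had an unadjusted p under 0.05, beside 407 of all 14176 genes. The smallest unadjusted p there was that of the pseudogene Ighv1-25, at 2.92, 2.23, 1.91 and 5.31 TPM, whose 4 libraries lay above all WT libraries (difference 1.17 ± 0.23, adjusted p = 0.869). The median standard error of a member's log2 difference was 1.29, so differences of about 2-fold in most members were not detectable at this number of libraries.

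Setting Idh2R172K beside the other Idh groups asks whether the 3 mutant enzymes differ. Against Idh1R132H 9 members were called, 4.97% against 13.5% of all genes, 8 heavy (6 higher, 2 lower) and 1 light chain segment, which was higher. With the replicate number as a block 10 heavy and 2 light chain members were called, and 2764 of 14176 genes in all, against 1918 without it. The differences, SE and adjusted p given here are from the fit without the block. Ighv6-6 was higher by 5.11 ± 1.01 (adjusted p = 0.0017), Igkv3-5 by 5.64 ± 1.36 (adjusted p = 0.00804) and Ighv1-27 by 1.39 ± 0.32 (adjusted p = 0.00621). Ighv1-64 was lower, at 2.16, 27.2, 0.405 and 23.6 TPM in Idh2R172K and 94.2, 33.9, 76.5 and 188 in Idh1R132H (-3.49 ± 0.79, adjusted p = 0.0054). These 4 were called under every alternative that could be fitted. Ighv1-23, Ighv1-32, Ighv1-33 and Ighv14-4 (higher) and Ighv3-6 (lower) had adjusted p of 0.014 to 0.0384, and none kept it in every run with 1 library left out. Ighv1-23 lost it without Idh1R132H replicate 1 (0.0579) or 3 (0.0534). Ighv1-32 lost it without Idh1R132H replicate 1 (0.0517) or 2 (0.0614) or Idh2R172K replicate 3 (0.0592) or 4 (0.0577), and Ighv1-33 without Idh1R132H replicate 1 (0.0532), 3 (0.0856) or 4 (0.0718). Here too Ighv1-33 passed the 1 TPM limit only through Idh2R172K. Ighv3-6 lost it without Idh1R132H replicate 1 (0.0543), 3 (0.076) or 4 (0.061) or Idh2R172K replicate 1 (0.09), 2 (0.0563) or 3 (0.0819). Ighv14-4 lost it without any 1 Idh1R132H library or Idh2R172K replicate 2, 3 or 4 (0.0614 to 0.0942). The heavy count was 3 without Idh1R132H replicate 1 and 4 without Idh1R132H replicate 3. Light chain calls numbered 2 without Idh1R132H replicate 1 or 4, 5 without Idh2R172K replicate 1 and 4 without Idh2R172K replicate 3.

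Against Idh2R140Q, the other allele of the same gene, 5 members were called, 2.76% against 10.5% of all genes. Ighv6-6 was at 1.95, 0.980, 0.463 and 1.03 TPM in Idh2R140Q, and was higher in Idh2R172K by 5.60 ± 1.01 (adjusted p = 0.000817). Igkv6-20 was at 38.7, 28.7, 68.0 and 40.7 TPM in Idh2R172K and 0, 0, 0.22 and 0.488 in Idh2R140Q (5.21 ± 1.38, adjusted p = 0.018). Igkv6-20 also reached 41.9 and 45.0 TPM in 2 WT libraries. Ighv1-77, an even segment of the stretch from Ighv1-72 to Ighv1-83, was lower, at 12.2, 16.4, 20.4 and 31.0 TPM against 45.9, 38.4, 32.7 and 53.0 (-1.11 ± 0.27, adjusted p = 0.00997). These 3 were called under every alternative that could be fitted. Ighv1-79 (-0.67, adjusted p = 0.037) and Ighv6-3 (3.30, adjusted p = 0.0378) were called too. Ighv1-79 lost the call without Idh2R140Q replicate 1, 2 or 4 or any 1 Idh2R172K library (0.0537 to 0.119), and Ighv6-3 without Idh2R140Q replicate 1, 3 or 4 or Idh2R172K replicate 2, 3 or 4 (0.08 to 0.137). The heavy count was 2 without Idh2R140Q replicate 1. Light chain calls numbered 5 without Idh2R140Q replicate 2, 3 without Idh2R140Q replicate 1, and 2 without Idh2R140Q replicate 3 or Idh2R172K replicate 1 or 3. The replicate number as a block gave 7 heavy and 2 light chain calls in place of 4 and 1, and 2076 of 14176 genes in all in place of 1489. The differences, SE and adjusted p given here are from the fit without that block.

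Against Tet2KO 15 members were called, 8.29% against 26.8% of all genes, 10 higher and 5 lower in Idh2R172K. Igkv1-117 was at 1064, 1069, 407 and 517 TPM in Idh2R172K and was higher by 3.90 ± 0.84 (adjusted p = 0.00302). Igkv14-126 was higher by 5.30 ± 1.35 (adjusted p = 0.00887), or 0.0726 when Tet2KO replicate 2 and the libraries numbered 4 of WT and the Idh groups were left out. Ighv6-6, Igkv3-5, Ighv1-27 and Ighv1-62-1 were also higher. Ighv1-79 was lower by -1.08 ± 0.20 (adjusted p = 0.00093) and Ighv1-83 by -1.08 ± 0.26 (adjusted p = 0.00542). Igkv10-96 was at 28.0, 100, 70.6 and 109 TPM in Idh2R172K against 129, 196, 326 and 320, lower by -1.71 ± 0.49 (adjusted p = 0.0161), and 0.0536 without Idh2R172K replicate 1. Of the other called members, Igkv4-59 missed the threshold without Idh2R172K replicate 2 (0.0649) or Tet2KO replicate 2 (0.0564). Ighv1-64 missed it without Idh2R172K replicate 1 (0.073) or 3 (0.0874) or Tet2KO replicate 2 (0.0552) or 4 (0.0765). Igkv3-9 missed it without Idh2R172K replicate 2 (0.132) or 4 (0.131) or any 1 Tet2KO library (0.0541 to 0.0696). Igkv3-9 had a mean of 0.0539 TPM over the 16 libraries of the other groups, and so passed the limit only through Idh2R172K. Ighv1-77 missed the threshold in a fit of the 2 groups alone (0.102). Ighv7-1 and Ighv1-55, called beyond the naming rule, missed it without Idh2R172K replicate 2 (0.0925 and 0.0528) or 4 (0.0876 and 0.0774) and without Tet2KO replicate 2 (0.0697 and 0.0693) or 4 (0.0771 and 0.108). Ighv7-1 also missed it without replicate 1 of Idh2R172K (0.0627) or of Tet2KO (0.0992), and Ighv1-55 without replicate 3 of Idh2R172K (0.135) or of Tet2KO (0.0539).

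The genes around the variable segments were read from lists chosen by function. Of 11 tested immunoglobulin constant genes 1 was higher and 1 lower in Idh2R172K against WT, a share near the 15.4% of all genes called. Ighd, the IgD constant gene, was at 0.920, 0.821, 0.906 and 1.01 TPM in Idh2R172K and 3.82, 5.36, 4.37 and 10.3 in WT, and fell by 1.78 ± 0.28 (adjusted p = 0.000179). It was lower than in each other group too, by -1.84 against Idh1R132H, -2.07 against Idh2R140Q and -2.21 against Tet2KO, and every alternative kept these calls. Ighg2c, the IgG2c constant gene, was at 76.6, 26.9, 96.7 and 71.9 TPM against 0.492, 13.3, 26.8 and 14.4 and rose by 2.68 ± 0.66 (adjusted p = 0.00909), or 0.066 in a fit of the 2 groups alone. Ighm, the IgM constant gene, was at 596, 2275, 1229 and 3334 TPM against 1199, 820, 942 and 1572 (0.48, adjusted p = 0.479). Iglc1 stood at 1915 TPM in WT replicate 1, the library with the highest Iglv1, and at 19.9 to 540 elsewhere.

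Joining and diversity segments lie between the variable and the constant genes. Of 34 listed, 13 were tested, and 0 were called higher and 2 lower in Idh2R172K against WT, a share equal to the 15.4% of all genes. Ighj1, the first heavy joining segment, was at 71.5, 118, 101 and 157 TPM in Idh2R172K and 135, 212, 203 and 449 in WT (-1.07 ± 0.33, adjusted p = 0.0322). Leaving out replicate 2 (0.0579), 3 (0.0537) or 4 (0.102) of WT ended the call, as did leaving out replicate 1 (0.103), 2 (0.0567) or 3 (0.0633) of Idh2R172K. Ighd4-1, a diversity segment, differed by -1.49 ± 0.40 (adjusted p = 0.0154), and its call ended without WT replicate 4 (0.0556) or Idh2R172K replicate 2 (0.0619).

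Of 12 recombination genes 1 was higher and 2 were lower in Idh2R172K against WT, beside 15.4% of all genes called. Dntt, the terminal transferase that adds bases at the joins, was at 196, 242, 232 and 257 TPM against 705, 1032, 834 and 1092 and fell by 1.96 ± 0.18 (adjusted p = 3.40e-07). Rag2, a subunit of the recombinase, fell by 1.01 ± 0.20 (adjusted p = 0.00137). Rag1, the other subunit, rose by 0.82 ± 0.20 (adjusted p = 0.00838), from 0.604, 0.896, 0.928 and 1.41 TPM to 2.61, 2.33, 2.36 and 2.41. The 2 subunits therefore differed in direction, at low levels.

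Of 12 tested surrogate light chain and B cell receptor genes 3 were higher and 3 lower in Idh2R172K against WT, beside 15.4% of all genes called. Igll1, a surrogate light chain component, was at 25.7, 3.49, 9.06 and 4.45 TPM against 0.339, 2.00, 0.657 and 1.35 and rose by 2.18 ± 0.53 (adjusted p = 0.00798). Its partner Vpreb2 rose by 2.11 ± 0.39 (adjusted p = 0.000769). Cd79b, a signalling chain of the B cell receptor, was at 40.0, 22.3, 28.5 and 25.4 TPM against 82.6, 81.8, 82.1 and 95.5 and fell by 1.56 ± 0.12 (adjusted p = 4.30e-08). Blnk, an adaptor of that receptor, fell by 0.93 ± 0.18 (adjusted p = 0.00151). Of 13 transcription factors tested, Pou2af1 (OCA-B, a B cell coactivator; 1.27 ± 0.29, adjusted p = 0.00585) and Foxo1 (0.58, adjusted p = 0.0284) rose and Irf8 (-1.29, adjusted p = 0.000108) fell.

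Marker lists of the sort and of other cells gave the following beside these results, where 15.4% of all genes were called in Idh2R172K against WT. Of 5 LSK sort genes 0 were higher and 3 lower, with a median of -0.36. Against Idh1R132H 3 were lower, against Idh2R140Q 2, and against Tet2KO 3 were lower and 1 higher. Their summed level was 2260 to 2429 TPM in WT and 2190 to 2359 in Idh2R172K. Of 13 B lineage markers 5 reached 1 TPM, and 0 were higher and 1 lower. Their summed level was 532 to 630 TPM in WT and 431 to 515 in Idh2R172K. The median log2 difference of the 5 was 0.67, against 0.11 over all genes, so the sum and the median went in opposite directions. Of 11 plasma cell markers 9 reached 1 TPM, at 452 to 648 TPM in WT, 433 to 480 in Idh2R172K and 292 to 750 in Tet2KO. In Idh2R172K against WT Mzb1, a chaperone of antibody-secreting cells, rose by 0.75 ± 0.25 (adjusted p = 0.0466). Leaving out replicate 2 (0.132), 3 (0.0823) or 4 (0.106) of WT ended the call, as did leaving out replicate 2 (0.135) or 4 (0.143) of Idh2R172K. Xbp1, a secretory cell transcription factor, fell by 0.56 ± 0.13 (adjusted p = 0.00567). Of 15 lymphoid priming genes 2 were higher and 8 lower in Idh2R172K against WT, with a median of -0.50. Of 10 T and NK markers 3 were tested and all 3 were lower in Idh2R172K, with a summed level of 12.4 to 18.7 TPM against 40.1 to 64.8 in WT. The part of any of these in the variable segment levels was not tested.

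T cell receptor variable segments, the genes most like the members, were at far lower levels. Of 169 listed, 6 had a mean of at least 1 TPM, and their summed level was 28.7 to 55.2 TPM in a library. It was 45.3 to 55.2 in Tet2KO and 28.7 to 43.7 in the other groups, with no overlap. Of the 6, Trbv1 was higher in Idh2R172K against WT (0.81 ± 0.24, adjusted p = 0.0246) and Trbv13-2 in Tet2KO (0.60 ± 0.15, adjusted p = 0.0251). Over all genes 15.4% and 7.05% were called in these comparisons.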

How the data were processed

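The authors deposited TPM values in 1 table of 46078 gene IDs and 20 libraries, each summing to 1000000. The submitters' processing notes name Trim Galore, STAR, featureCounts and mm10. Versions, strand setting and the handling of multiply matching reads are not given in the sources used here. Symbols, positions and transcripts come from GENCODE M21 (mm10), which held 45143 of the IDs. Columns prefixed IDH1 with the mutation 140Q were taken as Idh2R140Q. Reads per library were recovered from TPM times exon length (90.1 to 91.2% of values up to 30 reads whole within 0.1).

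limma 3.58.1 (R 4.3.3) was fitted to log2(TPM + 1), 5 groups in 1 fit with a variance trend, over the 14176 genes whose mean reached 1 TPM, 2-sided p adjusted by Benjamini and Hochberg, called under 0.05. A fold change on this scale understates changes of low genes. The fit was tested on simulated data. There were 7 comparisons. Members and lists were chosen with earlier results of these data known.

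Named were the 6 most abundant members per locus, up to 8 called members per direction and comparison, the 6 most held by 1 library, the 3 on each side of the limit, constant, joining and diversity genes, and up to 4 called genes of each other list. Others are said to be chosen later. Same-numbered libraries deviated together in every pair (r over 0.1) for Idh1R132H against WT and Idh2R172K against Idh1R132H and Idh2R140Q, so the number was taken to pair them there. The differences, SE and adjusted p given for these comparisons nevertheless come from the main fit, which ignores that pairing. For them the number of calls with the block is given too. Alternatives were another pseudocount, other filters, other scalings, a fit of 2 groups, a replicate block, no trend and libraries left out. Python 3.11.15, pandas 2.3.3, numpy 2.4.6 and matplotlib 3.10.9 were used.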

Additional observations from a re-analysis of the deposited data

Results flagged for a closer look

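In each group of 4 libraries the highest and lowest value was compared with the rest, and 41 of 268 groups over 56 items held a library far from the other 3. Chance gives about 1 in 20, but the items were not chosen at random: 14 of the 41 fall on the 6 members named for their share in 1 library, several at about 0.2 TPM beside exact zeros. Any 1 group below is described only, and the part of cell mixture, depth or chance was not tested.

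In WT, replicate 1 stood apart with Ighg3 at 30.3 TPM, Ighv14-4 at 29.2 and Igkv9-129 at 23.1, and, close to 0, with Igkv10-95 at 0.47, Igkv4-69 at 0.234 and Ighv1-22 at 0.232 where the others were at 0. Replicate 2 stood apart with Igkv6-29 at 23.4 TPM and a low Igha of 421, replicate 3 with Igkv4-71 at 29.4, and replicate 4 with Igkv3-5 at 19.6. In Idh1R132H, replicate 1 had Igkv6-32 at 0 TPM where the others had 32.8 to 40.0. Replicate 3 had Igkv3-5 at 36.3 and Igkv3-9 at 0.413, and replicate 4 had Igkv6-20 at 40.0 and Ighv14-4 at 0.231.

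In Idh2R140Q, replicate 2 stood apart with Ighg2c at 74.3 TPM, Igkv10-95 at 64.1, Ighv1-22 at 21.7, Igkv4-71 at 0.395 and Igkv4-69 at 0.201. Replicate 3 had a low Ighv14-2 of 0.47 and replicate 1 Igkv9-129 at 0.219. In Idh2R172K, replicate 2 stood apart with Iglv3 at 76.7 TPM, Igkv12-38 at 51.3 and Ighv1-33 at 15.9, and replicate 1 with a low Ighv1-22 of 4.36. Replicate 4 had Ighg2b at 59.0, Ighv1-27 at 8.13, Igkv9-129 at 1.19, Igkv4-69 at 0.241 and Igkv6-29 at 0.223.

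In Tet2KO, replicate 4 had a lambda sum of 530 TPM, Igkv6-32 at 42.0, Igkv4-59 at 25.6, Igkv3-5 at 18.6 and Ighv14-2 at 12.2. Replicate 2, the library with low Kit, had low values of Ighv1-81 (254 TPM) and Ighv3-6 (0.37). Replicate 1 had Ighv14-4 at 19.9, Ighv6-6 at 12.5 and Igkv4-69 at 0.261.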

How the results depend on the processing

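Of 44 called pairs of a named member and a comparison, 20 kept their call in every alternative that could be fitted. In at least 1 alternative 24 lost it, and 0 reversed. There were 50 called pairs in all. Those outside the naming rule (Ighv7-1, Ighv1-55, Ighv5-2, Ighv1-53, Igkv5-39 and Igkv14-111) each lost the call without a filter. The causes were not tested. Idh2R172K against WT had 11 heavy and 4 light chain calls. Without a filter these were 6 and 2, with a mean of at least 5 TPM 5 and 2 (fewer genes tested), and with a pseudocount of 0.1 the light chain count was 2. Over all genes the main fit called 2177 of 14176. Without a filter it was 2530 of 30645, with at least 5 TPM 1371 of 10575, and with a pseudocount of 0.1 2159 of 14176. Tet2KO against WT had 4 and 2. The heavy count was 2 with a mean of at least 5 TPM, and both were 0 in a fit of the 2 groups. The light chain count was 1 with a pseudocount of 0.1, 0 without a filter, 5 with median-of-ratios scaling, 4 with rescaled TPM, 4 with the replicate block (numbers not paired there), and 1 without the libraries numbered 4 and Tet2KO replicate 2. Over all genes the main fit called 999 of 14176 and the fit of the 2 groups 47 of 14173. It was 517 of 10575 with at least 5 TPM, 879 with the other pseudocount and 848 of 30645 without a filter. Median-of-ratios scaling gave 2643 of 14145, rescaled TPM 1785, the block 2485, and the fit without those libraries 4515. The libraries numbered 4, here and below, are those of WT and the Idh groups, and Tet2KO replicate 4 was kept. Idh2R172K against Idh1R132H had 8 and 1. The heavy count was 5 without a filter and 5 with a mean of at least 5 TPM. The light chain count was 3 with a pseudocount of 0.1, 3 with median-of-ratios scaling, 2 rescaled, 3 in a fit of the 2 groups, 2 with the replicate block and 3 without the libraries numbered 4. Over all genes the main fit called 1918 of 14176. It was 2118 of 30645 without a filter, 1242 of 10575 with at least 5 TPM and 1888 with the other pseudocount. In the order of the remaining alternatives it was 2518 of 14145, 2413, 2335, 2764 and 3815. Idh2R172K against Idh2R140Q had 4 and 1. The heavy count was 2 without a filter, 7 with median-of-ratios scaling, 2 in a fit of the 2 groups and 7 with the replicate block. The light chain count was 2 with median-of-ratios scaling, 2 rescaled, 3 in a fit of the 2 groups, 2 with the replicate block and 3 without the libraries numbered 4. Over all genes the main fit called 1489 of 14176, and 1719 of 30645 were called without a filter. In the order of the light chain alternatives it was 1968 of 14145, 1818, 1341, 2076 and 2884. Idh2R172K against Tet2KO had 9 and 6, the light chain count being 3 without the libraries numbered 4 and Tet2KO replicate 2. Over all genes 3803 of 14176 were called in the main fit and 4979 without those libraries.

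The libraries numbered 4 of WT and the Idh groups had median-of-ratios scaling factors of 1.11 to 1.21, against 0.92 to 1.03 in the other libraries of those groups. Tet2KO replicate 2 was at 0.78, against 1.04 to 1.08 in the other Tet2KO libraries. With 1 library left out, or these libraries numbered 4 and Tet2KO replicate 2 together, heavy counts ranged from 6 to 11 (Idh2R172K against WT), 2 to 5 (Tet2KO against WT), 3 to 10 (against Idh1R132H), 2 to 6 (against Idh2R140Q) and 7 to 13 (against Tet2KO). Light chain counts ranged from 2 to 6, 0 to 5, 1 to 5, 1 to 5 and 3 to 8 in the same order. Idh1R132H and Idh2R140Q against WT stayed at 0 in all of these. In Idh2R140Q against WT 3 of 4 same-numbered pairs had r over 0.1, in Idh2R172K against WT 2 of 4, and in the Tet2KO comparisons 0 of 4. The numbers thus paired the libraries there in part or not at all, and 14 of 20 libraries correlated best with one of their own number. The main fit used no replicate block. With the block Idh2R172K against WT gave 13 heavy and 4 light chain calls, and 3141 of 14176 genes in all in place of 2177. Idh1R132H against WT gave 0 heavy and 0 light chain calls with it. Depth limits segments near 1 TPM, and 4 libraries a group limit uneven ones.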
